A study of Arabidopsis thaliana with 24 samples.

Results

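Agmatine, ornithine and arginine metabolism was followed through 10 genes that lie on, or next to, 2 routes out of arginine. ADC1 (AT2G16500) and ADC2 (AT4G34710) encode the arginine decarboxylases, which turn arginine into agmatine. AIH (AT5G08170) and NLP1 (AT2G27450) encode agmatine iminohydrolase and N-carbamoylputrescine amidase, which carry agmatine on to putrescine. AACT1 (AT5G61160) encodes the agmatine coumaroyltransferase, and DTX18 (AT3G23550) encodes a transporter of the MATE family that exports coumaroylagmatine. ARGAH1 (AT4G08900) and ARGAH2 (AT4G08870) encode the arginases, which split arginine into ornithine and urea, and NATA1 (AT2G39030) and NATA2 (AT2G39020) encode a pair of related acetyltransferases, of which NATA1 acetylates ornithine and putrescine. All 10 of these genes, among 27416 in the count table, passed the filter on low counts together with 20109 genes in all. They were chosen by measured values of the same libraries: AACT1 was picked for its level with 2e against 2 in Col-0, NATA1 for its level with 2, and the other 8 were added as genes of the same pathways. The values in Col-0 with mock, 2 and 2e, and every comparison among these 9 libraries, are therefore given as a description with no test. The same holds for jaz9-1 against Col-0 under 2 and under 2e and for every difference built on those values. The count of genes past the threshold in these comparisons supports nothing here.

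Plants make putrescine from arginine by way of agmatine or, in many species, from ornithine, and Arabidopsis is known to lack ornithine decarboxylase. Agmatine can also be joined to coumaroyl-CoA, and the resulting coumaroylagmatine is known as an antimicrobial compound that is exported to the leaf surface. Ornithine can be acetylated by NATA1 to a compound known from leaves treated with jasmonate or with coronatine, a bacterial toxin that mimics the active jasmonate and acts through the COI1 receptor and the JAZ repressors.

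The libraries came from whole 6-day-old seedlings of 2 genotypes, wild-type Col-0 and jaz9-1, a single T-DNA insertion line in JAZ9, which encodes one of the JAZ repressors. Seedlings were placed for 8 h in liquid medium with mock solution, with 2 (coronatine), with its stereoisomer 2e, or with a compound known from the labels only as 12. The series text gives a dose of 1 µM. Each of the 8 groups (2 genotypes, 4 treatments) had 3 libraries, each made from a pool of 5 to 8 seedlings. Nothing in the labels ties the libraries to separate sowings, so p-values measure the spread between these libraries alone. In whole seedlings, fewer cells of a type and less RNA per cell cannot be told apart.

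Total counts ran from 6226126 to 29404141 per library. JAZ9 itself was measured at 169, 185 and 185 CPM (counts per 1000000 of the scaled library size) in the Col-0 libraries with 2, and at 37.4, 41.6 and 52.1 CPM in those of jaz9-1, and transcript of the targeted gene was thus still counted in the line. The log2 difference of JAZ9 between jaz9-1 and Col-0 was -0.65 under mock (adjusted p = 0.26), -2.05 under 2 (adjusted p = 1.9e-09), -1.83 under 2e (adjusted p = 2.4e-07) and -1.45 under 12 (adjusted p = 1.3e-05). One library stood apart: replicate 1 of jaz9-1 with 2. The chi-square per degree of freedom between the replicates of jaz9-1 with 2 was 10.6 to 21.4, against 6.35 to 14.0 between replicates of the other 7 groups, and leaving that library out raised the number of genes that differed between the genotypes under 2 from 1665 to 3032. Values of the 10 genes that rest on it are given with and without it, and so are the counts over the gene lists. All 5 root markers (CASP1, COBL9, EXPA7, SHR, PHO1) were above 0 in every library, with sums of 58.3 to 72.6 CPM in Col-0 with 12 against 76.0 to 95.5 CPM in Col-0 with mock, and of 68.8 to 100.3 CPM in the jaz9-1 groups. The 5 shoot markers (RBCS1A, LHCB1.3, LHCB2.1, FAMA, LHCA1) were above 0 as well, and their sum was 32114 to 39984 CPM in jaz9-1 with 2 against 28006 to 28327 CPM in jaz9-1 with mock. It was 25047 to 27496 CPM in jaz9-1 with 2e, and 23472 to 26519 CPM in Col-0 with 12 against 27754 to 28505 CPM in Col-0 with mock, so that these groups did not overlap with mock either. In Col-0 with 2 the root sum was 60.9 to 67.3 CPM, below that of Col-0 with mock. The shoot sum there was 29047 to 29984 CPM, above that of Col-0 with mock. This sum is mostly RBCS1A and LHCB1.3 (means of 16980 and 7807 CPM in Col-0 with mock) and hides other markers. With 2 in Col-0, 3 of the 5 lay above mock and 1 below. At an adjusted p below 0.1, 0 were higher and 1 was lower there, beside 11.9% and 11.2% of all genes. Under mock, 2 of the 5 were lower in jaz9-1 than in Col-0, beside 1.34% of all genes. LHCB2.1 ran from 409 to 1703 CPM over all 24 libraries. The part of these shifts in the results for 2 and 2e in jaz9-1 and for 2 and 12 in Col-0 was not tested.

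Below, a level is in CPM, scaled by the TMM factors of edgeR, with its SD over 3 libraries. A difference is a log2 fold change with its SE from edgeR, and a gene rose or fell where the Benjamini-Hochberg adjusted p of the quasi-likelihood test, over all 20109 genes, was below 0.1. Square brackets hold 95% intervals. For values given as a description, intervals and SEs show spread alone and are no test. Levels are not compared between genes.

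AACT1 was high with 2e and 12 in Col-0 and stayed low with 2. In Col-0 its level was 1.25, 4.91 and 4.38 CPM in the mock libraries and 3.06, 1.498 and 2.44 CPM with 2. With 2e it was 82.5, 57.4 and 101 CPM, and with 12 it was 61.0, 66.5 and 88.0 CPM. Each library with 2e or 12 therefore lay far above each library with mock or 2, and the libraries with mock and with 2 overlapped. The log2 fold change against mock was -0.54 (SE 0.41) for 2 and 4.48 (SE 0.36) for 2e, both as a description. For 12, whose libraries were not named in the choice of genes although the mock libraries were, AACT1 rose 20.05-fold (log2 fold change 4.33, SE 0.36, adjusted p = 3.9e-10).

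In jaz9-1 AACT1 was measured at 1.01, 4.36 and 3.45 CPM with mock, 4.94, 9.72 and 5.14 CPM with 2, 21.1, 7.18 and 9.78 CPM with 2e, and 12.0, 10.4 and 11.8 CPM with 12. The libraries with 2e and 12 were above every mock library but below every Col-0 library with the same compound. AACT1 rose 3.90-fold with 2e in jaz9-1 (log2 fold change 1.96, SE 0.39, adjusted p = 0.0024) and 3.61-fold with 12 (1.85, SE 0.39, adjusted p = 0.0044). With 2 it passed the threshold by little (1.03, SE 0.42, adjusted p = 0.077). Leaving out 1 library ended that call for mock replicate 1 (0.72, adjusted p = 0.27), mock replicate 3 (1.096, adjusted p = 0.12) and replicate 2 of 2 (0.66, adjusted p = 0.37), and the value was 1.26 (adjusted p = 0.043) without replicate 1 of 2.

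DTX18, the exporter, was high with all 3 compounds. Its level in Col-0 was 3.07, 0.335 and 1.83 CPM with mock, where 0.335 CPM is 3 counts. It was 19.8, 25.5 and 29.1 CPM with 2, 41.6, 28.0 and 50.3 CPM with 2e, and 26.4, 35.6 and 43.8 CPM with 12. No mock library reached any treated one, and the ranges of the 3 treated groups overlapped, with the lowest library of 2e and of 12 inside the range of 2. As a description, the log2 fold change in Col-0 was 3.77 (SE 0.34) with 2 and 4.46 (SE 0.34) with 2e. With 12 it rose 19.5-fold (4.28, SE 0.34, adjusted p = 1.3e-10).

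Unlike in Col-0, where the treated groups overlapped, DTX18 was highest with 2 in jaz9-1. There its level was 2.61, 3.38 and 2.01 CPM with mock, 39.8, 65.2 and 62.2 CPM with 2, 10.6, 12.7 and 6.41 CPM with 2e, and 10.9, 10.1 and 13.1 CPM with 12. All 3 libraries with 2 lay above all 6 with 2e or 12, which in turn lay above the mock libraries. DTX18 rose 20.3-fold with 2 (4.35, SE 0.34, adjusted p = 2.9e-12; 4.55 without replicate 1 of 2), 3.61-fold with 2e (1.85, SE 0.35, adjusted p = 0.0012) and 4.201-fold with 12 (2.07, SE 0.34, adjusted p = 0.00023). The end of DTX18 overlaps AT3G23540 on the other strand in the TAIR10.1 annotation. In no comparison with mock did AT3G23540 pass the test, and its log2 fold changes ran from -0.72 (jaz9-1 with 2, adjusted p = 0.12) to 0.0033 (Col-0 with 2e).

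**Figure D1:**
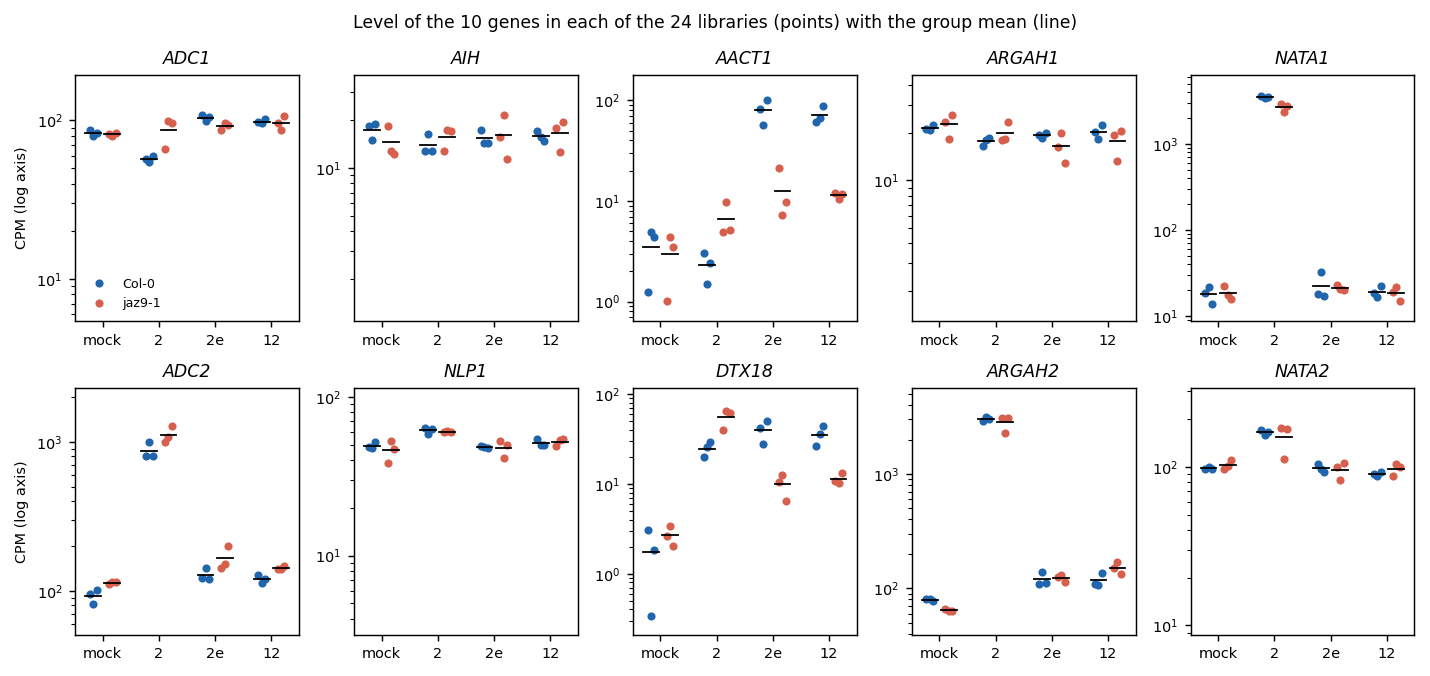
Level of each of the 10 genes in every library, in CPM on a log axis, for the 8 groups of genotype and treatment, with points for libraries and a bar for the group mean. AACT1 is high only in Col-0 with 2e and 12 (57.4 to 101 CPM), whereas NATA1 is high with 2 in both genotypes (2342 to 3587 CPM).

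NATA1 and ARGAH2, the 2 genes of the ornithine side with the largest differences, were high with 2 in both genotypes. NATA1 was measured at 18.4, 21.5 and 13.8 CPM with mock and at 3587, 3437 and 3570.3 CPM with 2 in Col-0. It stayed at 18.1, 32.3 and 17.3 CPM with 2e and 18.5, 16.7 and 22.5 CPM with 12. In these 9 libraries without 2 the ranges overlapped, and the 3 libraries with 2 stood far above. The description in Col-0 is a log2 fold change of 7.65 (SE 0.21) for 2 and 0.37 (SE 0.17) for 2e. For 12 the NATA1 difference in Col-0 was 0.12 [-0.24, 0.48], which did not pass the test.

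In jaz9-1 NATA1 was at 22.1, 17.4 and 15.8 CPM with mock, 2905, 2342 and 2802 CPM with 2, 22.8, 20.4 and 20.2 CPM with 2e, and 18.8, 21.7 and 15.0 CPM with 12. Again only the libraries with 2 stood apart. NATA1 rose 147-fold with 2 (log2 fold change 7.20, SE 0.20, adjusted p = 1.1e-23; 7.14 without replicate 1 of 2). With 2e the difference was 0.21 [-0.16, 0.58] (adjusted p = 0.81) and with 12 it was 0.01 [-0.37, 0.39], and neither passed the test. AT2G39040, which lies next to NATA1 on the other strand, fell with 2 in jaz9-1 (-2.08, SE 0.49, adjusted p = 0.0015).

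NATA2, the neighbour of NATA1 on the same strand, moved much less. Its level in jaz9-1 was 96.4, 100.6 and 109.8 CPM with mock and 175, 113 and 173 CPM with 2, so that every library with 2 was above the mock libraries. NATA2 rose by 0.59 on the log2 scale (SE 0.12, adjusted p = 0.00033; 0.47 without replicate 1 of 2). Because the acetyltransferases are related in sequence, some reads of NATA1 could have been counted for NATA2. NATA2 did not pass the test with 2e or 12 in jaz9-1 or with 12 in Col-0. In Col-0 it was described at 97.3, 100.3 and 96.4 CPM with mock and 171, 158 and 167 CPM with 2.

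ARGAH2, the arginase that makes ornithine from arginine, rose with all 3 compounds in jaz9-1. Its level there was 66.4, 63.1 and 62.8 CPM with mock, 3106, 2288 and 3092 CPM with 2, 125, 129.7 and 114 CPM with 2e, and 151, 171 and 133 CPM with 12. The mock libraries were the lowest, followed without overlap by 2e, 12 and 2. ARGAH2 rose 44.2-fold with 2 (5.46, SE 0.13, adjusted p = 1.6e-25; 5.39 without replicate 1 of 2), 1.92-fold with 2e (0.94, SE 0.11, adjusted p = 8e-07) and 2.36-fold with 12 (1.24, SE 0.11, adjusted p = 2e-09).

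In Col-0 the level of ARGAH2 was 80.7, 80.2 and 77.4 CPM with mock, 2922, 3149.9 and 3028 CPM with 2, 109, 139 and 112 CPM with 2e, and 109.9, 107 and 136 CPM with 12. The groups with 2e and 12 overlapped each other and lay above mock. As a description the log2 fold change was 5.26 (SE 0.13) with 2 and 0.60 with 2e, and with 12 ARGAH2 rose 1.48-fold (0.57, adjusted p = 0.0012). ARGAH1, the other arginase, lay between 12.9 and 25.8 CPM in all 24 libraries and passed no test. Its log2 fold change with 2 in jaz9-1 was -0.19 (adjusted p = 0.50; -0.12 without replicate 1 of 2).

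ADC2, one of the arginine decarboxylases at the head of the agmatine route, followed 2 rather than 2e or 12. Its level in Col-0 was 95.04, 81.2 and 101 CPM with mock and 809.8, 1004 and 807 CPM with 2. With 2e it was 122, 143 and 120.5 CPM and with 12 it was 128, 113 and 120.4 CPM. Every treated library lay above the mock libraries, and those with 2 lay far above the rest. In jaz9-1 the level of ADC2 was 111, 115 and 115 CPM with mock, 995, 1073 and 1281 CPM with 2, 143, 152 and 199.6 CPM with 2e, and 140.3, 139 and 146 CPM with 12.

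In jaz9-1 ADC2 rose 9.81-fold with 2 (log2 fold change 3.29, SE 0.12, adjusted p = 1e-20; 3.37 without replicate 1 of 2). It rose 1.45-fold with 2e (0.54, SE 0.11, adjusted p = 0.0045), but that value was 0.38 (adjusted p = 0.12) without replicate 3 of 2e. With 12 the difference was 0.32 (adjusted p = 0.20). In Col-0 with 12 ADC2 rose by 0.38 (adjusted p = 0.072), a call lost without mock replicate 1 (0.39) or 2 (0.30) and without replicate 1 (0.33) or 3 (0.38) of 12. The description for Col-0 is 3.24 (SE 0.12) with 2 and 0.47 with 2e.

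ADC1, the other decarboxylase gene, changed little, and its direction with 2 was not the same in the 2 genotypes. Its level in Col-0 was 86.9, 80.3 and 83.8 CPM with mock and 57.0, 55.0 and 59.3 CPM with 2. In jaz9-1 it was 82.2, 79.6 and 83.3 CPM with mock and 66.2, 99.0 and 96.2 CPM with 2. The Col-0 libraries with 2 were all below mock, whereas in jaz9-1 replicate 1 of 2, the library that stood apart, was below mock and the others were above. As a description the difference in Col-0 was -0.55 (SE 0.11). In jaz9-1 it was 0.08 (adjusted p = 0.66) with that library and 0.26 (adjusted p = 0.064) without it. With 2e and 12 the level of ADC1 was 86.5 to 108 CPM in both genotypes, and it passed no test against mock with 2e or 12 in jaz9-1 or with 12 in Col-0.

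AIH and NLP1, the steps from agmatine to putrescine, varied little. AIH lay between 11.4 and 21.6 CPM over all 24 libraries, and its difference with 2 in jaz9-1 was 0.12 (adjusted p = 0.77; 0.26 without replicate 1 of 2). NLP1 was measured at 38.4, 52.8 and 47.0 CPM with mock and 60.0, 61.3 and 59.7 CPM with 2 in jaz9-1. All libraries with 2 were above those with mock, and NLP1 rose by 0.38 (SE 0.11, adjusted p = 0.012), a call lost without mock replicate 1 (0.27, adjusted p = 0.10) and kept without replicate 1 of 2 (0.39). That call was also lost in a fit of the compared groups alone (0.38, adjusted p = 0.12). In Col-0 NLP1 was at 48.0, 47.7 and 51.7 CPM with mock and 63.4, 58.7 and 62.9 CPM with 2, a described log2 fold change of 0.33.

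Counted over the 10 genes, 7 rose and 0 fell with 2 in jaz9-1, where 29.2% of all tested genes passed the test in either direction (8 rose, with ADC1, and 0 fell without replicate 1 of 2). With 2e in jaz9-1, 4 rose (AACT1, DTX18, ARGAH2 and ADC2) and 0 fell, against 1.97% of all genes. With 12 in jaz9-1, 3 rose (DTX18, AACT1 and ARGAH2) and 0 fell, against 2.5% of all genes. With 12 in Col-0, 4 rose (AACT1, DTX18, ARGAH2 and ADC2) and 0 fell, against 3.05% of all genes. The median log2 fold change of the 10 genes with 2 in jaz9-1 was 0.81, beside -0.03 over all tested genes. In the comparisons that chose the genes, 6 were higher and 1 was lower with 2 in Col-0, where 23.1% of all genes passed the threshold, and 4 were higher with 2e, where 2.75% did. Nothing is read from those counts. The counts in jaz9-1 and with 12, and the median, also hold AACT1 and NATA1, which were picked for their levels in Col-0. They are therefore no independent evidence about the pathways.

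**Figure D2:**
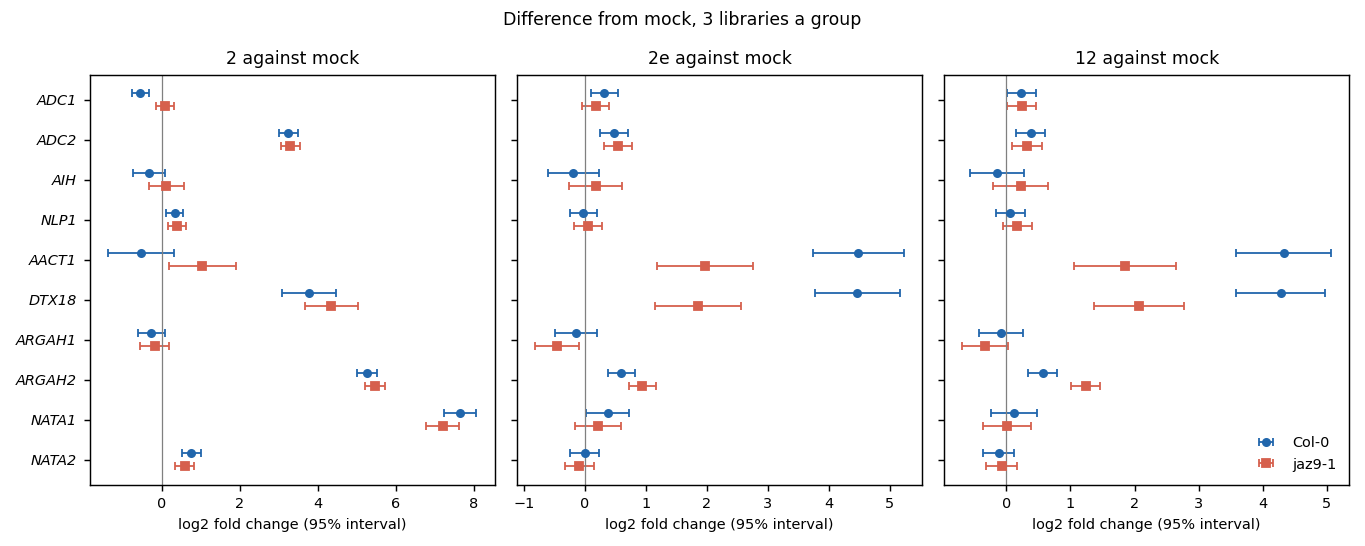
Log2 fold change against mock of the 10 genes with 2, 2e and 12 in each genotype, with 95% intervals. For 2 and 2e in Col-0 the intervals show spread alone and are no test. With 2, NATA1, ARGAH2, DTX18 and ADC2 lie between 3.24 and 7.65 in both genotypes, and with 2e and 12 AACT1 and DTX18 lie between 4.28 and 4.48 in Col-0 and between 1.85 and 2.07 in jaz9-1.

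The 2 routes were set side by side by compound. In Col-0 the mean of AACT1 was 2.33 ± 0.787 CPM with 2 and 80.2 ± 21.8 CPM with 2e (SD, n = 3), while that of NATA1 was 3532 ± 82.1 CPM with 2 and 22.6 ± 8.45 CPM with 2e. The choice of AACT1 and NATA1 fixed this pattern in Col-0 with 2 and 2e, so it is no evidence of a contrast. The 6 libraries with 2 had NATA1 at 2342 CPM or more and AACT1 at 9.72 CPM or less. The 6 Col-0 libraries with 2e or 12 had AACT1 at 57.4 CPM or more and NATA1 at 32.3 CPM or less. In jaz9-1 AACT1 was less far apart. It was at 7.18 to 21.1 CPM with 2e, which overlapped the 4.94 to 9.72 CPM with 2, and at 10.4 to 12.0 CPM with 12. DTX18 did not stay with AACT1 in being low with 2, since its mean with 2 was 24.8 ± 4.67 CPM in the wild type, and 55.7 ± 13.9 CPM in jaz9-1.

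**Figure D3:**
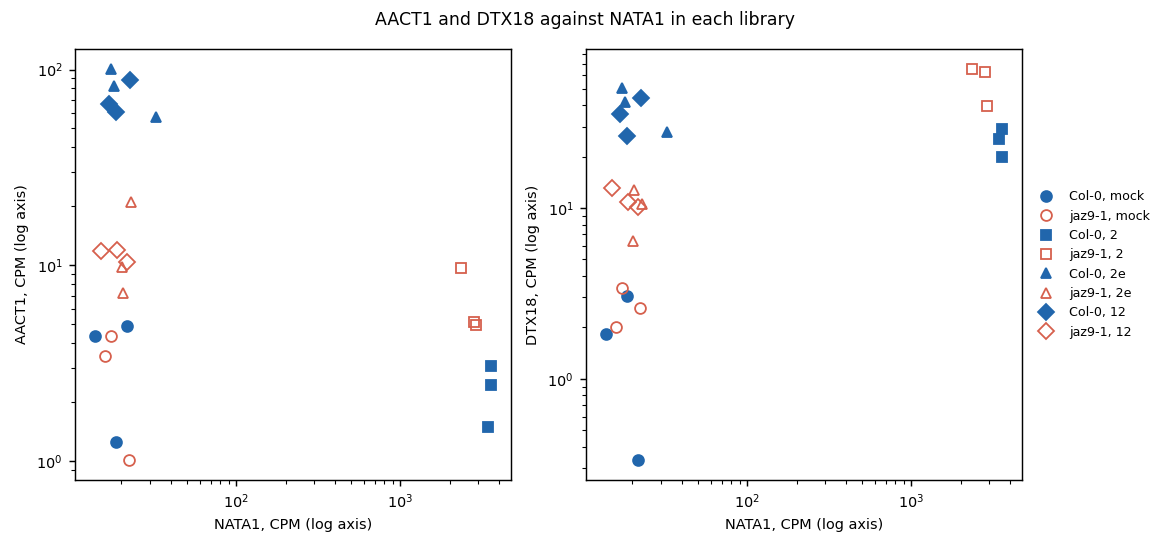
AACT1 (left) and DTX18 (right) on the vertical axis against NATA1 on the horizontal axis, in CPM on log axes, with 1 point for each of the 24 libraries, coloured by genotype and shaped by treatment. Libraries with 2 sit at 2342 to 3587 CPM of NATA1 with 1.498 to 9.72 CPM of AACT1, and Col-0 libraries with 2e or 12 sit at 16.7 to 32.3 CPM of NATA1 with 57.4 to 101 CPM of AACT1. The jaz9-1 libraries sit at 7.18 to 21.1 CPM of AACT1 with 2e and at 10.4 to 12.0 CPM with 12.

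The compounds were compared at the same dose and time in 3 pairs in jaz9-1 and, for 2e against 12, also in Col-0. Coronatine and its stereoisomer 2e differed for most of the genes in jaz9-1: 1 was higher with 2e (AACT1) and 6 were lower, where 25.5% of all genes differed. Without replicate 1 of 2 it was 0 higher and 6 lower. NATA1 was 127-fold lower with 2e than with 2 (log2 difference -6.99, adjusted p = 2.4e-23), ARGAH2 was lower by a log2 difference of -4.53, ADC2 by -2.75 and DTX18 by -2.49 (SE 0.28, adjusted p = 2.5e-08). Without replicate 1 of 2 the same values were -6.93, -4.46, -2.83 and -2.70. The smaller differences were -0.68 for NATA2 (-0.57 without replicate 1 of 2) and -0.34 for NLP1 (-0.34). The call of NLP1 was lost without replicate 2 of 2e (-0.24, adjusted p = 0.18) and in a fit of the compared groups alone (-0.33, adjusted p = 0.17). AACT1 was higher with 2e than with 2 by 0.93 (SE 0.36, adjusted p = 0.067), and that call was lost without replicate 1 of 2 (0.69, adjusted p = 0.24), without replicate 3 of 2 (0.83, adjusted p = 0.17), without replicate 1 of 2e (0.38, adjusted p = 0.53), and with DESeq2 (adjusted p = 0.17). For DTX18 the description in Col-0 had the other sign, 0.69 with 2e against 2.

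Compound 12 against 2 in jaz9-1 gave 0 higher and 5 lower, where 24.2% of all genes differed. NATA1 was lower by a log2 difference of -7.19, ARGAH2 by -4.22, ADC2 by -2.97, DTX18 by -2.28 and NATA2 by -0.66. Without replicate 1 of 2 these 5 were at -7.13, -4.15, -3.05, -2.48 and -0.55 and all were again lower. AACT1 did not pass the test (0.82, adjusted p = 0.12; 0.58, adjusted p = 0.34 without replicate 1 of 2), but it did without replicate 2 of 2 (1.19, adjusted p = 0.046).

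None of the 10 genes differed between 2e and 12 in edgeR's test. In Col-0 this shares the libraries of 2e with the choice of genes, so the Col-0 result is a description. In Col-0 0% of all tested genes did (810 had an unadjusted p below 0.05, and DESeq2 called 9), and in jaz9-1 it was 0.0646%. An unadjusted p below 0.05 was found for 0 of the 10 genes in Col-0, beside 4.03% of all genes, and for 1 (ARGAH2) in jaz9-1, beside 6.80%. DESeq2 called 0 of the 10 in either genotype. The difference of AACT1 between 2e and 12 was 0.16 [-0.43, 0.74] in Col-0 and 0.11 [-0.56, 0.78] in jaz9-1, and that of DTX18 was 0.18 [-0.34, 0.70] and -0.22 [-0.80, 0.37]. In jaz9-1 these intervals bound the difference to less than 1 on the log2 scale and do not show that the compounds act alike. No bound is read from those in Col-0, which hold the 2e libraries that chose AACT1. ARGAH2 was lower with 2e than with 12 in jaz9-1 by -0.30 [-0.52, -0.08], with an adjusted p of 0.57.

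The genotypes were compared within each treatment. Under 2 and 2e the Col-0 side of these comparisons is made of the values that chose the genes, so those differences are a description with no test, and the counts past the threshold support nothing. Under mock the Col-0 libraries also had a part in the choice, as the baseline. Under mock 0 of the 10 genes differed, where 2.53% of all genes did. Of the 10, 2 had an unadjusted p below 0.05, where 13.1% of all genes did, and these were ADC2 (0.29, adjusted p = 0.22) and ARGAH2 (-0.31, adjusted p = 0.18), and DESeq2 called 0. Under 12 1 gene was higher and 2 were lower in jaz9-1, where 3.42% of all genes differed. Past the threshold under 2e were 1 higher and 2 lower, beside 3.35% of all genes, and under 2 there were 4 higher and 0 lower, beside 8.28%.

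Under 12 AACT1 was 6.25-fold lower in jaz9-1 than in Col-0 (log2 difference -2.64, SE 0.32, adjusted p = 3.9e-06), with a jaz9-1 mean of 11.4 ± 0.891 CPM (SD, n = 3), 15.9% of the Col-0 mean. DTX18 was 3.09-fold lower under 12 (-1.63, SE 0.27, adjusted p = 0.00047). For both genes all 3 jaz9-1 libraries lay below all 3 Col-0 libraries. NATA1 did not pass the test under 12 (-0.06, adjusted p = 0.95). ARGAH2 was higher in jaz9-1 by 0.37 (adjusted p = 0.064), and that call was lost without replicate 1 (0.32) or 2 (0.30) of Col-0 with 12 and without replicate 1 (0.36) or 2 (0.27) of jaz9-1 with 12. As a description, the difference under 2e was -2.69 (SE 0.32) for AACT1, with a jaz9-1 mean of 12.7 ± 7.39 CPM (15.8% of the Col-0 mean), and -2.02 (SE 0.28) for DTX18, again with no overlap of the libraries. It was 0.36 for ADC2 and -0.11 for NATA1.

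Under 2 the described differences of both genes of the coumaroylagmatine route had the other sign. DTX18 was at 1.16 (SE 0.26) and AACT1 at 1.40 (SE 0.40), with every jaz9-1 library above every Col-0 library. Without replicate 1 of jaz9-1 with 2 the values were 1.36 for DTX18 and 1.63 for AACT1, and without replicate 2 of that group AACT1 was at 1.02. ADC1 was at 0.60 (SE 0.11; 0.76 without replicate 1), ADC2 at 0.35 (0.42 without it) and NATA1 at -0.40 (-0.47 without it).

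**Figure D4:**
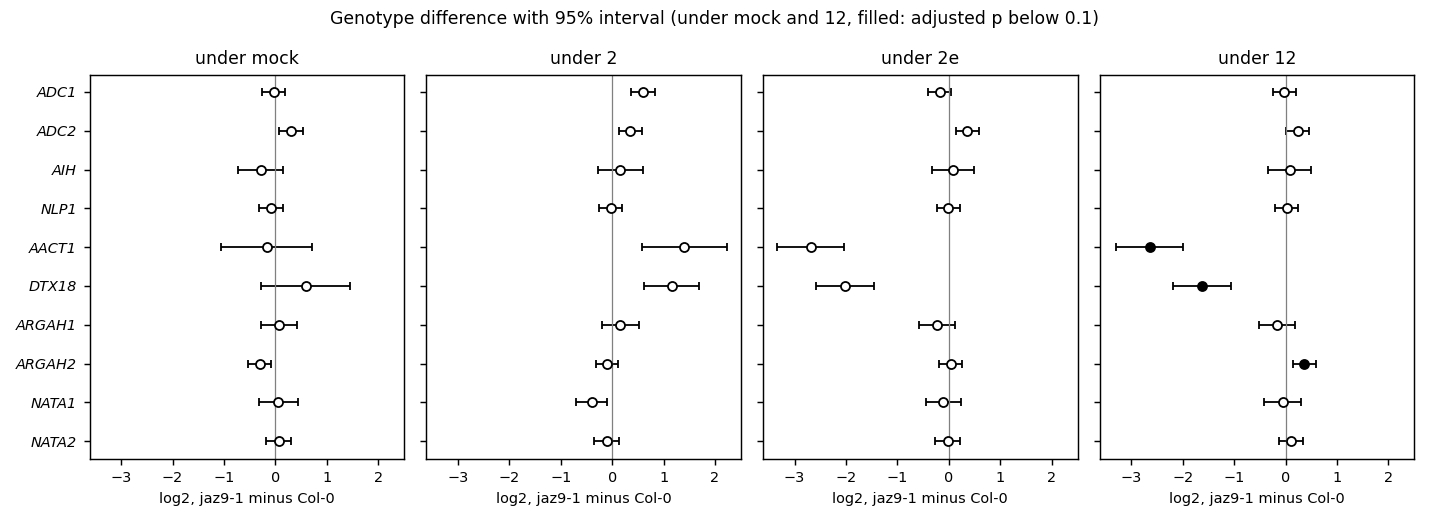
Log2 difference between jaz9-1 and Col-0 of the 10 genes under mock, 2, 2e and 12, with 95% intervals and, under mock and 12, filled points where the adjusted p is below 0.1. Under 2 and 2e the intervals show spread alone and are no test. AACT1 and DTX18 lie to the right of 0 under 2 (1.40 and 1.16) and to the left under 2e (-2.69 and -2.02) and 12 (-2.64 and -1.63).

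Whether a response differed between the genotypes was measured as the fold change against mock in jaz9-1 minus that in Col-0, and for 2 and 2e it contains a comparison that chose the genes, so it is tested for 12 alone. For 12 0 of the 10 passed in edgeR and 0.00497% of all genes did. An unadjusted p below 0.05 was found for 3 of the 10, beside 5.87% of all genes, and DESeq2 called 2. AACT1 differed by -2.47 (adjusted p = 0.14), DTX18 by -2.21 (adjusted p = 0.16) and ARGAH2 by 0.67 (adjusted p = 0.16). AACT1 passed without replicate 1 of jaz9-1 with mock (-2.78) and ARGAH2 without replicate 3 of Col-0 with 12 (0.79). The described value for 2e was -2.52 for AACT1 and -2.61 for DTX18. For 2e, 0 of the 10 genes and 0% of all genes were past the threshold (871 had an unadjusted p below 0.05, and DESeq2 called 10). For 2 it was 0.63 (SE 0.16) for ADC1, 1.57 for AACT1 and -0.45 for NATA1, which were 0.80, 1.801 and -0.52 without replicate 1 of jaz9-1 with 2. There 1 of the 10 (ADC1) and 0.741% of all genes were past the threshold, and nothing is read from it.

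The genotype difference was also set side by side between compounds, without the mock libraries. In Col-0 the larger part of this value for AACT1 is the difference between 2e and 2 for which the gene was picked, and both contrasts hold the Col-0 libraries with 2, so these values were looked at after the fact and carry no test. Between 2e and 2 the value was -4.10 (SE 0.51) for AACT1, -3.19 (SE 0.38) for DTX18, -0.78 (SE 0.16) for ADC1 and 0.29 for NATA1. Between 12 and 2 it was -4.05 (SE 0.51) for AACT1, -2.79 (SE 0.38) for DTX18 and -0.62 (SE 0.16) for ADC1. Without replicate 1 of jaz9-1 with 2, AACT1 was at -4.32 and -4.27, DTX18 at -3.38 and -2.98, and ADC1 at -0.94 and -0.79. Past the threshold were 3 of the 10 genes in both, beside 1.58% and 1.3% of all genes, from which nothing is read. Between 2e and 12 the value for AACT1 was -0.05 (SE 0.44).

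The neighbouring steps were read from 6 lists with 55 genes, of which 53 were tested (the conjugating acyltransferases SHT and SDT had at most 2 counts). Against mock, 28 rose and 2 fell with 2 in jaz9-1, where 14.9% of all tested genes rose and 14.2% fell. Without replicate 1 of 2 it was 24 and 4, beside 15.4% and 15.5%. With 2e and with 12 in jaz9-1 0 passed. In Col-0 21 rose and 2 fell with 2, where 11.9% of all genes rose and 11.2% fell, 2 rose with 2e (P5CS2 and PUT4), where 2.41% did, and 0 passed with 12. The lists were taken up with earlier results of these libraries known.

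With 2 in jaz9-1, 6 of 12 genes of arginine synthesis rose and 0 fell (5 and 1 without replicate 1 of 2), beside the 14.9% of all genes that rose, with a median log2 fold change of 0.20. They included ASS, encoding argininosuccinate synthase (1.02, adjusted p = 3.8e-09; 0.86 without replicate 1 of 2), OTC, encoding ornithine carbamoyltransferase (0.31, adjusted p = 0.0095), and WIN1, encoding an acetylornithine aminotransferase (0.29, adjusted p = 0.021; 0.23, adjusted p = 0.12 without mock replicate 3). In Col-0 1 of the 12 rose, where 11.9% of all genes did. Of 8 genes of spermidine and spermine synthesis 3 rose and 1 fell with 2 in jaz9-1, beside 14.9% and 14.2% of all genes. Without replicate 1 of 2 it was 2 and 1, beside 15.4% and 15.5%. Those that rose included SPDS1 (0.45, adjusted p = 6.3e-05), a spermidine synthase gene, and SAMDC1 (0.38, adjusted p = 0.00029), a gene of S-adenosylmethionine decarboxylase, and the one that fell was the spermidine synthase gene SPDS2 (-0.32, adjusted p = 0.014; -0.24, adjusted p = 0.11 without mock replicate 1).

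Polyamine oxidation held 4 genes that rose and 1 that fell among 8 (4 and 2 without replicate 1 of 2), beside 14.9% and 14.2% of all genes, with a median of 0.72. PAO3 (1.297, adjusted p = 1.7e-08) and PAO2 (0.98, adjusted p = 0.00015; 0.78 without replicate 1 of 2) encode polyamine oxidases, and CUAO1 (1.22, adjusted p = 1e-06) encodes a copper amine oxidase. Of 9 genes of ornithine, proline and urea turnover 6 rose and 0 fell, beside 14.9% and 14.2% of all genes. Without replicate 1 of 2 it was 4 and 0, beside 15.4% and 15.5%. PRODH1 (1.77, adjusted p = 3.9e-10; 1.96 without replicate 1 of 2) and PRODH2 (4.63, adjusted p = 4.5e-08), both for proline dehydrogenase, led this list, and DELTA-OAT (0.95, adjusted p = 0.00012) encodes ornithine aminotransferase. PRODH2 had 0 counts in replicate 1 of jaz9-1 with mock and was at 5.31 without mock replicate 3.

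Coumaroyl-CoA, the acyl donor of AACT1, comes from the phenylpropanoid pathway. Of 9 genes of hydroxycinnamoyl-CoA supply, 4 rose with 2 in jaz9-1 and 0 fell, beside 14.9% and 14.2% of all tested genes. Without replicate 1 of 2 it was 3 and 0, beside 15.4% and 15.5%. Those that rose included the phenylalanine ammonia-lyase genes PAL1 (1.57, adjusted p = 1.2e-12) and PAL3 (0.83, adjusted p = 0.00069) and the 4-coumarate CoA ligase gene 4CL2 (0.99, adjusted p = 3.2e-05). With 2e in jaz9-1, where AACT1 was higher than with mock, PAL1 differed from mock by 0.18 (adjusted p = 0.70) and 4CL2 by 0.10 (adjusted p = 0.92). Of 7 tested genes of polyamine conjugation and transport 5 rose and 0 fell with 2 in jaz9-1, beside 14.9% and 14.2% of all tested genes. Without replicate 1 of 2 it was 6 and 0, beside 15.4% and 15.5%. Among those that rose were PUT4 (1.34, adjusted p = 8.2e-06) and PUT5 (0.87, adjusted p = 0.00044), genes of polyamine transporters, and SCT, encoding spermidine coumaroyltransferase (2.2002, adjusted p = 0.0011; 1.53, adjusted p = 0.030 without replicate 1 of 2). All 18 named genes of these lists kept their call without replicate 1 of 2, and apart from SCT their values moved by at most 0.21. In a fit of the compared groups alone OTC (adjusted p = 0.13), WIN1 (adjusted p = 0.16) and SPDS2 (adjusted p = 0.102) lost their call with 2. Every list's median with 2e or 12 in jaz9-1 was at most 0.38, and medians over all tested genes were within 0.03 of 0.

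**Figure D5:**
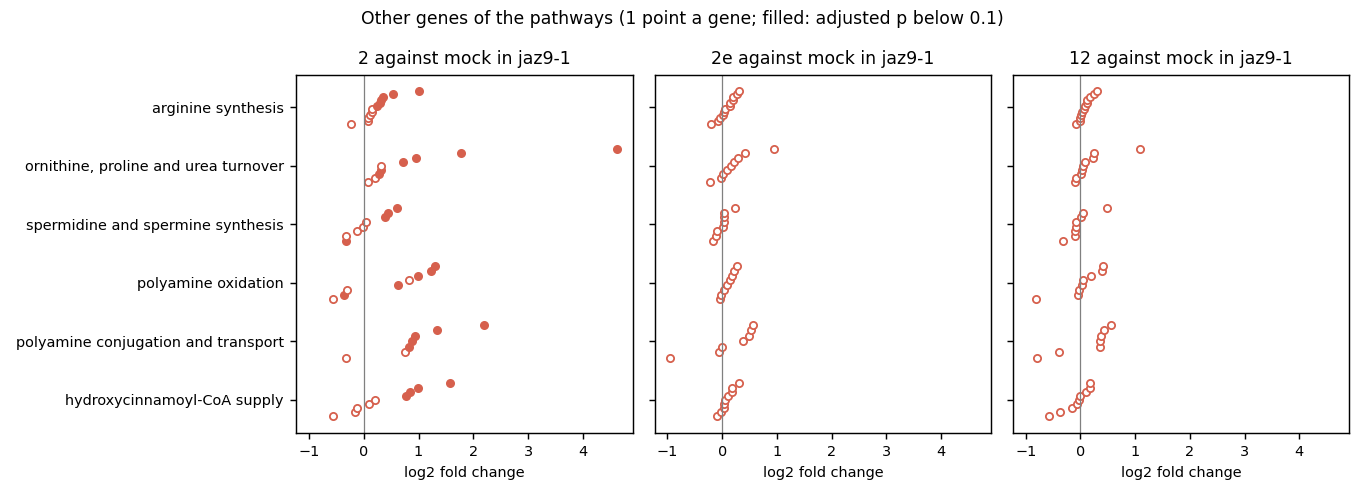
Log2 fold change against mock of the tested genes of 6 neighbouring pathway lists in jaz9-1 with 2, 2e and 12, with 1 point a gene, filled where the adjusted p is below 0.1. With 2 the medians of polyamine oxidation (0.72) and of conjugation and transport (0.87) lie farthest from 0.

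The genes with the most similar pattern over the 8 groups were looked for among 16712 genes, by the root mean square difference of centred mean log2 CPM, a description over 8 group means that gives weight to the size of a response. For AACT1 they were PLA2A (0.67), AT1G15125 (0.68), ORA59 (0.86), CYP71B22 (1.01) and SIB2 (1.05). PLA2A had group means of 2.19, 2.26, 24.7 and 25.8 CPM with mock, 2, 2e and 12 in Col-0, and of 1.76, 1.93, 3.25 and 3.51 CPM in jaz9-1. For DTX18 the nearest were AT4G24350 (0.66), DIN11 (0.66), RAP2.9 (0.80), NRT1.8 (0.88) and AR781 (0.90). RAP2.9 stood at 7.25 CPM with 2 and 14.8 CPM with 2e in Col-0, and at 14.7 and 5.45 CPM in jaz9-1. This is the same turn in the order of group means as for DTX18, whose Col-0 libraries with 2 and 2e overlapped. RAP2.9 was found by its likeness to DTX18 in these means, so it is no evidence for the turn. The others listed for DTX18 lacked this turn, being higher with 2 than with 2e in Col-0 as well. Their Col-0 means with 2 and 2e were 385 and 296 CPM (AT4G24350), 254 and 102 CPM (DIN11), 58.7 and 23.9 CPM (NRT1.8), and 49.5 and 19.0 CPM (AR781).

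For NATA1 the nearest genes were PGL5 (0.16), VSP1 (0.24), AT3G28220 (0.26), JAL23 (0.33) and VSP2 (0.35), where VSP1 and VSP2 encode vegetative storage proteins. VSP1 had a mean of 31.5 CPM with mock and 3993 CPM with 2 in Col-0, and of 33.3 and 4032 CPM in jaz9-1. Among the 10 genes, ARGAH2 was nearest to NATA1 (1.14, rank 27 of 16712). The distance from AACT1 to DTX18 was 1.70 (rank 475). The distance from AACT1 to NATA1 was 4.28, rank 16712, a value fixed in part by the choice of both genes. NATA1 also had rank 16712 from ADC1, AIH and NLP1.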

How the data were processed

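The authors trimmed reads with Trimmomatic 0.39, aligned them to TAIR10 with HISAT2 2.2.1 and deposited counts per gene from featureCounts 2.0.1, run on 1 strand with reads over several genes counted for each. Reads of close paralogs (ADC1 and ADC2, NATA1 and NATA2, ARGAH1 and ARGAH2) may be shared. A second deposited table, the counts divided by DESeq2 size factors, was not used, nor were its 8 unnamed columns. Counts were fitted in R 4.3.3 with edgeR 4.0.16 (filterByExpr, TMM, 1 coefficient for each of 8 groups over all 24 libraries, quasi-likelihood F-test, common biological coefficient of variation 0.186). Adjusted p-values are Benjamini-Hochberg over all 20109 tested genes, with a threshold of 0.1. Log2 CPM for profiles used a prior count of 2 and a mean of at least 1.

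The genes and lists were chosen with earlier results of these data known. All 10 genes are described. Of each pathway list up to 3 genes are named, those with the lowest adjusted p in jaz9-1 against mock, and for AACT1, DTX18 and NATA1 the 5 nearest genes. P5CS2 was named after its value was seen. Alternatives were DESeq2 1.42.0, RLE size factors, no count filter, the compared groups alone, a threshold of 0.05, a replicate block and each library left out. Comparisons that contain Col-0 with 2 or 2e were fitted with the rest, but no p-value of the 10 genes is given for them. For 2e against 12 in Col-0 the count of calls is given as a description. The code was tested on simulated data. Annotation from TAIR10.1 served for names and neighbours.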

Additional observations from a re-analysis of the deposited data

Results flagged for a closer look

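The genotype difference in the response to 2 was 0.63 on the log2 scale for ADC1. It passed edgeR's threshold of 0.1 with all libraries, and the value ran from 0.52 to 0.80 when each library was left out in turn. No call of ADC1 under the alternatives is given. Over all genes, 149 were called for this difference with all libraries, and 52 to 1271 when each library was left out in turn. A threshold of 0.05 gave 66 and the compared groups alone gave 59. The genotype difference between 2e and 2 was -4.10 for AACT1, -3.19 for DTX18 and -0.78 for ADC1, and that between 12 and 2 was -4.05 for AACT1, -2.79 for DTX18 and -0.62 for ADC1. All of these values contain the Col-0 libraries that chose the genes, so they are a description and their tests support nothing.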

How the results depend on the processing

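No called log2 fold change of the 10 genes changed sign under any alternative, whereas 59 alternative values of tested differences that had not passed did, and so did 43 of the described values. Of 1380 alternative values of tested differences, 1336 stayed on their side of the threshold, 26 fell below it and 18 passed it. Of 1440 described values, 36 moved by more than their SE. Replicate numbers did not deviate together between groups (correlations -0.051 to 0.065 over 84 pairs), and a replicate block ended or made 0 calls and moved 0 described values beyond their SE among 264 log2 fold changes of the 10 genes and the pathway genes. With the block, 6 genes were called for 2e against 12 in Col-0, 7 for the genotype difference in the response to 12 and 1 for that to 2e. AACT1 with 2 in jaz9-1 was 1.03 and not called at a threshold of 0.05, and 1.11 (adjusted p = 0.17) with the compared groups alone.

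Fitted with the compared groups alone, genes called were 3533 for 2 against mock, 3006 for 2e against 2 and 2958 for 12 against 2 in jaz9-1, 1036 for 12 against mock and 22 for 2e against 12 in Col-0, 1226 between genotypes under 12 and 576 under 2, 59, 2 and 34 for the genotype difference in the responses to 2, 2e and 12, and 105 for that between 2e and 2. Without a filter they were 947 (Col-0) and 799 (jaz9-1) for 12 against mock, 682 for 2e against mock in jaz9-1, 183 (Col-0) and 162 (jaz9-1) for 2e against 12, 936, 1129 and 1080 between genotypes under mock, 2e and 12, 668, 78 and 141 for the responses, and 851 and 703 for 2e and 12 against 2. DESeq2 gave 9 for 2e against 12 in Col-0, 774 between genotypes under mock, and 290, 10 and 21 for the responses. A threshold of 0.05 gave 4 for 2e against 12 in jaz9-1, 315 and 1027 between genotypes under mock and 2, 66 for the response to 2, and 150 and 167 for 2e and 12 against 2.

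Of the 10 genes, without a filter 1 was called for 2e against 12 in jaz9-1, 2 between genotypes under mock and 3 for the genotype difference in the response to 12. For the last, the groups alone gave 3 and DESeq2 gave 2. Leaving out 1 replicate at a time, AACT1 ran from 0.66 to 1.43 with 2 in jaz9-1. The described AACT1 values ran from -3.24 to -2.41 between genotypes under 2e and from -4.63 to -3.72 for the genotype difference between 2e and 2, and those of NATA1 from -0.27 to 0.25 and from 0.13 to 0.66. Genes called then ran from 390 to 495 for 12 and from 361 to 470 for 2e against mock in Col-0, from 0 to 16 (Col-0) and 2 to 26 (jaz9-1) for 2e against 12, from 224 to 588, 722 to 3032, 272 to 666 and 290 to 586 between genotypes under mock, 2, 2e and 12, from 52 to 1271, 0 to 9 and 0 to 9 for the responses to 2, 2e and 12, and from 129 to 1627 and 147 to 1182 for 2e and 12 against 2. Of the 10 genes, 0 to 1 were called for the response to 12.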
